A study of Bos taurus with 12 samples.

Results

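The proteasome genes of the bovine embryo are described here: the genes whose symbols carry the PSMA, PSMB, PSMC, PSMD, PSME, PSMF or PSMG prefix followed by a number, taken from probe sets that the array's annotation pairs with exactly 1 gene. The choice gave 40 genes of the 9155 genes named on the array. They were covered by 46 of the 24016 probe sets tested, and a gene with several was represented by the probe set of highest mean level. Of the 40 genes, 16 encode the core particle (PSMA and PSMB), 16 carry a cap symbol (PSMC and PSMD) and 8 belong to the other families. PSME3IP1, which met the symbol rule, encodes a protein that binds the activator PSME3 and is no subunit of the particle. No probe set paired with exactly 1 gene named SEM1 or PSMC3IP, nor PSMA2, PSMD3, PSMD7, PSMD8, PSMD12, PSME3 or PSMG4. Probe sets that name several genes were not searched. Counts by role thus cover the genes measured and not every subunit, activator or chaperone.

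RNA was measured in 12 pools of Japanese Black cattle embryos, 3 pools in each of 4 groups. The groups were blastocysts from prepubertal heifers, 8-16-cell embryos from prepubertal heifers, blastocysts from adult cows and 8-16-cell embryos from adult cows. Heifers were 9 to 12 months old and their ovaries were removed on farms, whereas the cows' ovaries came from an abattoir, so donor age and ovary source cannot be told apart. All oocytes were matured and fertilised in vitro with frozen-thawed semen, and all embryos were cultured in vitro. Blastocysts were expanded, had not hatched, were collected on day 7 and were pooled by 10. The 8-16-cell embryos were collected on day 3, 70 to 72 hours after insemination, and were pooled by 50. RNA was amplified before it was hybridised to an Affymetrix bovine genome array, and the values are signal intensities in arbitrary units. In such pools, fewer cells of a type and less RNA per cell cannot be told apart, and pool size differs with stage. The labels call the replicates biological and do not say whether pools of different groups shared donors.

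The proteasome is the protease that breaks down most ubiquitin-tagged proteins of the cytosol and nucleus. Its core is a barrel of stacked rings: outer alpha rings, built from PSMA subunits, form the gate, and inner beta rings, built from PSMB subunits, carry the cutting sites. The cap binds tagged proteins, removes the tag and threads the chain into the core. The cap's base holds the ATPases (PSMC) and some PSMD subunits, and its lid holds other PSMD subunits. Dedicated chaperones, among them PSMG proteins for the core and PSMD5, PSMD9 and PSMD10 for the base, help the parts to assemble and leave the finished particle. In early embryos the proteasome is known for clearing proteins that the oocyte left behind while the embryo's own genome takes over, which in cattle happens at about the 8-16-cell stage.

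The stage labels were borne out by their markers. Of 7 measured blastocyst markers, 5 were higher in blastocysts over both donor groups, among them the epithelial keratin KRT18, and of 8 measured oocyte and cleavage-stage markers 6 were lower, among them the oocyte growth factor BMP15. The summed signal of the blastocyst list was 129847 to 154407 in prepubertal blastocysts and 428 to 1501 in prepubertal 8-16-cell embryos. In adult embryos it was 83841 to 153051 in blastocysts and 528 to 545 in 8-16-cell embryos. Cumulus and granulosa markers, all 12 of which were measured, summed to 1947 to 2091 in prepubertal blastocysts against 3451 to 15701 in prepubertal 8-16-cell embryos. Their sum was 1818 to 4466 in adult blastocysts against 4089 to 17591 in adult 8-16-cell embryos, and the ranges were apart in prepubertal embryos and overlapped in adult embryos. The median stage difference of the 12 markers was −1.09 in prepubertal embryos, 0.23 in adult embryos and −0.28 over both donor groups. Of the 12 markers, STAR passed the test over both donor groups, with a difference of −3.57 (limma adjusted p = 0.0168). STAR also passed in prepubertal embryos (−5.43, adjusted p = 0.0203) and not in adult embryos (−1.71, adjusted p = 0.791). HAS2, with 2.98 over both donor groups (adjusted p = 0.0643), did not pass and exceeded background on all 6 blastocyst arrays. Of these 12 markers, 1 to 3 exceeded background on prepubertal blastocyst arrays and 1 or 2 on prepubertal 8-16-cell arrays, against 2 or 3 on adult blastocyst arrays and 2 to 4 on adult 8-16-cell arrays. Of 7 blood and 7 sperm markers measured, 0 to 2 exceeded background on any array. The part of such cells in the stage differences below was not tested.

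The arrays differed in how much rose above background, taken per array from the brightest of 27 control probe sets for Bacillus subtilis genes. Between 6093 and 8500 probe sets exceeded it on blastocyst arrays, 4297, 5333 and 1255 on the prepubertal 8-16-cell arrays and 5482 to 7148 on the adult 8-16-cell arrays. Replicate 3 of the prepubertal 8-16-cell embryos stood apart, with a background signal of 1664 against 122 to 424 on the other 11 arrays. Hybridisation controls were also brightest in this group, with mean log2 signals of 18.59 to 20.18 against 16.99 to 18.59 on the other 9 arrays. Each array was scaled to 1 average signal, so all levels are relative to the rest of the array. The part of background and scaling in the results below was not tested, and counts are given with and without that array.

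Most proteasome genes were readable in blastocysts. The number of the 40 genes above background was 34, 33 and 32 in prepubertal blastocysts against 15, 22 and 7 in prepubertal 8-16-cell embryos. It was 31, 34 and 31 in adult blastocysts against 30, 30 and 24 in adult 8-16-cell embryos. The prepubertal 8-16-cell arrays were thus lowest, and they were also the arrays with the highest background. PSMA3, PSMA6, PSMC2, PSMC6, PSMD11 and PSMD14 exceeded background on all 12 arrays, and PSMB9 and PSMD13 on none. In all, 35 of the 40 genes exceeded it on at least 3 arrays.

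**Figure D1:**
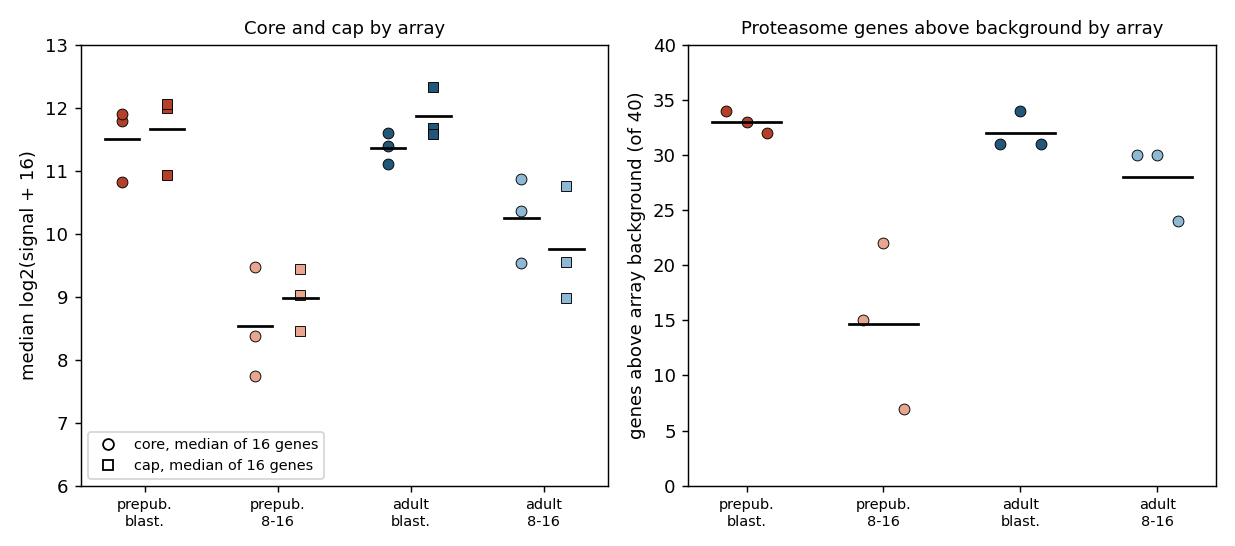
Core and cap genes by array. Left: median log2(signal + 16) of the 16 core genes (circles) and the 16 cap genes (squares) on each array. Right: number of the 40 proteasome genes above array background. Points are arrays and lines are means of 3 arrays; in the left panel the blastocyst arrays lie above the 8-16-cell arrays of the same donor group, and in the right panel the prepubertal 8-16-cell arrays lie lowest, with 7 to 22 genes above background.

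Over both donor groups, proteasome genes were higher in blastocysts more often than lower. Signals were compared as log2(signal + 16) with limma, a linear model whose spread is shared across probe sets, and a gene was called at an adjusted p of at most 0.05 over all 24016 probe sets. Averaged over prepubertal and adult embryos, 7 of the 40 genes were higher in blastocysts than in 8-16-cell embryos and 1 was lower. The 8 calls make 20.0% of the genes, beside 6.40% of all probe sets (3.90% higher and 2.51% lower). When each named gene was represented once, 9.87% of genes were called. By mean level, 37 of the 40 genes lay above the median of all probe sets. Among the 9807 probe sets above background on at least 3 arrays, fitted alone, 17.5% were called, beside 10 of 35 proteasome genes. The difference was above 0 for 32 of the 40 genes, with a median of 1.73 log2 units against −0.17 for all probe sets. Without prepubertal 8-16-cell replicate 3, again 7 were higher and 1 lower, with 6.96% of all probe sets called and a median of 1.70 for the 40 genes against −0.0011.

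**Figure D2:**
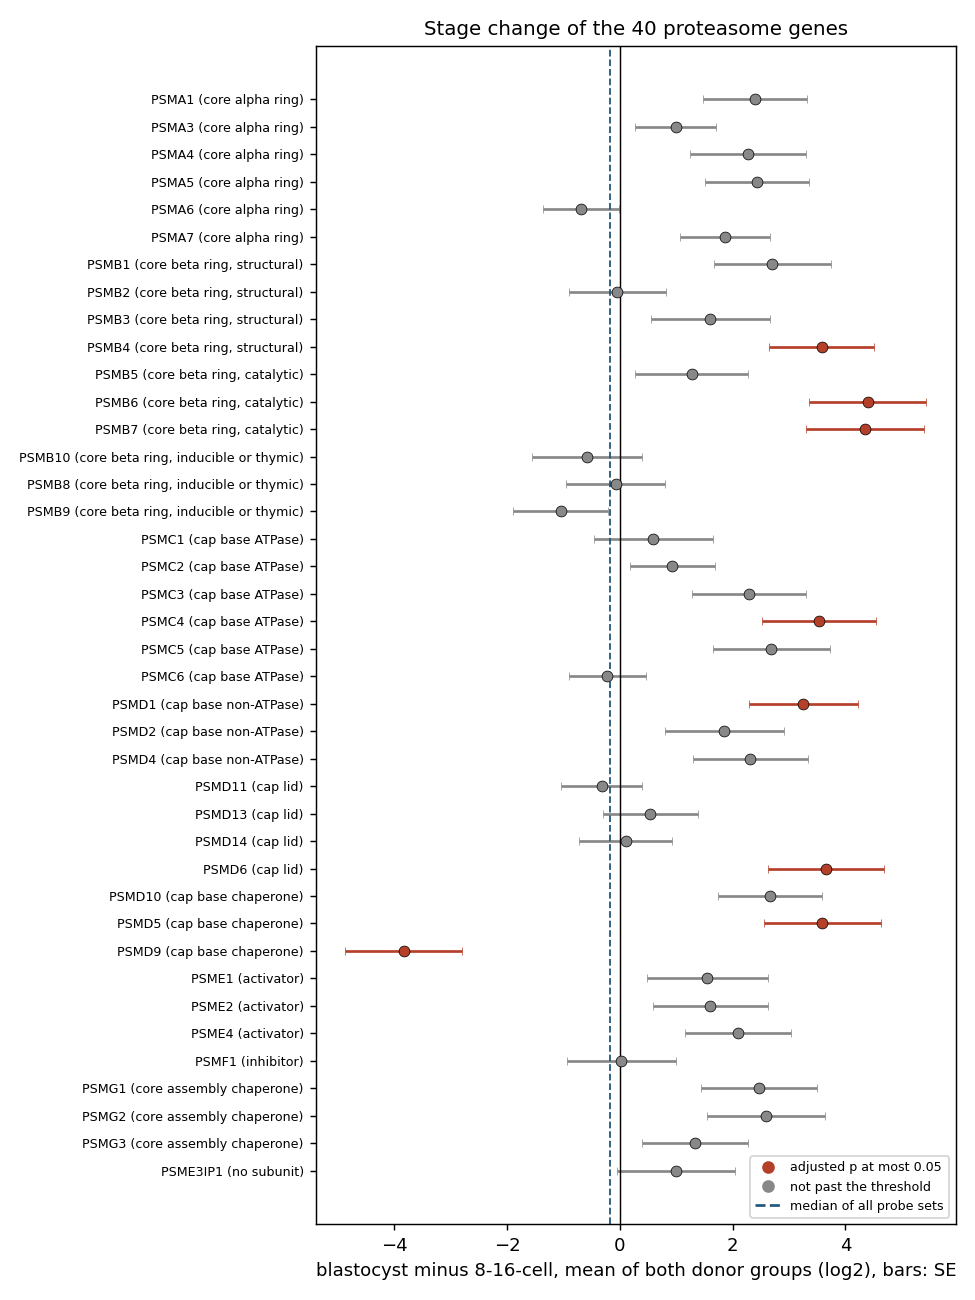
Stage difference of the 40 proteasome genes, ordered by role. Points are the blastocyst minus 8-16-cell difference in log2(signal + 16), averaged over both donor groups, bars are limma's standard error (3 arrays per group, 12 arrays in the fit), red marks an adjusted p of at most 0.05 and the dashed line is the median of all probe sets. The 8 called genes run from −3.83 for PSMD9 to 4.40 for PSMB6.

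Within donor groups fewer genes passed. In prepubertal embryos 4 of 40 genes were called, all higher in blastocysts, beside 2.34% of all probe sets (1.43% higher and 0.912% lower). In adult embryos 1 gene was higher and 1 lower, beside 2.13% of all probe sets (1.26% higher and 0.870% lower). With each named gene represented once, the shares called were 3.95% in prepubertal and 3.17% in adult embryos. Among probe sets above background on at least 3 arrays, fitted alone, they were 6.32% and 6.18%. In those fits 5 of 35 proteasome genes were called in prepubertal embryos and 1 of 35 in adult embryos. The median difference of the 40 genes was 2.04 in prepubertal embryos and 1.40 in adult embryos, against −0.37 and 0.08 for all probe sets. Without prepubertal 8-16-cell replicate 3, 2 genes were called in prepubertal embryos, beside 2.23% of all probe sets, and 2 in adult embryos, beside 3.31%. The arrays of the stages did not overlap for 15 of 40 genes in prepubertal embryos, against 16.6% of all probe sets and 19.7% of named genes. In adult embryos they did not overlap for 12 of 40, against 17.2% of all probe sets and 21.0% of named genes. Across all 12 arrays they did not overlap for 2 of 40 genes (5%), which were PSMB6 and PSMB7. The share was 3.44% of all probe sets and 5.63% of named genes represented once, so the count was no higher than among named genes.

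**Figure D3:**
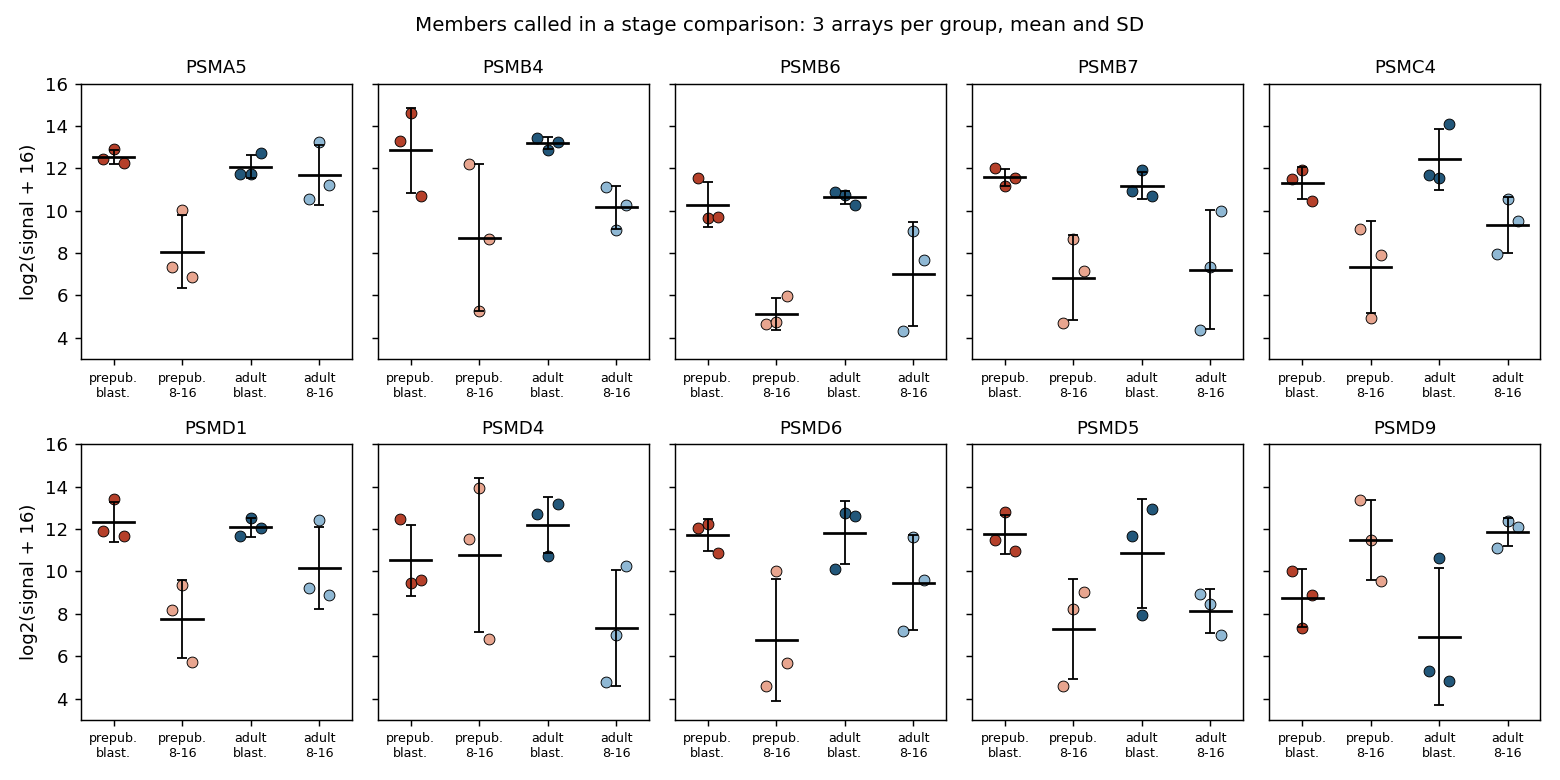
The 10 proteasome genes called in a stage comparison. Each panel shows log2(signal + 16) by array for 1 gene, with prepubertal embryos (red) left of adult embryos (blue) and blastocysts (dark) left of 8-16-cell embryos (light). Lines and bars are the mean and SD of 3 arrays. For PSMB6 and PSMB7 every blastocyst array lies above every 8-16-cell array, and PSMD9 is the gene that is lower in blastocysts.

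Of the 6 alpha-ring genes measured, 5 had a positive mean stage difference and 4 of them an unadjusted p under 0.05 for it, but limma called none after adjustment. PSMA5, a subunit of the alpha ring, passed the test in prepubertal embryos. Its signals were 5488.5, 7676 and 4943 in prepubertal blastocysts against 145, 1031 and 99.6 in prepubertal 8-16-cell embryos. They were 3430.3, 3444 and 6653 in adult blastocysts against 1496, 9807 and 2341 in adult 8-16-cell embryos. The stages were apart in prepubertal embryos and overlapped in adult embryos, where 8-16-cell replicate 2 was the highest of all. The difference was 4.47 (SE 1.3, limma adjusted p = 0.0362) in prepubertal embryos and 0.39 (adjusted p = 0.976) in adult embryos. The PSMA5 call in prepubertal embryos was lost when any prepubertal blastocyst array, or 8-16-cell replicate 1 or 3, was left out, with differences of 3.86 to 4.60 and adjusted p of 0.0724 to 0.166. Averaged over donor groups the PSMA5 difference was 2.43 (adjusted p = 0.103), and it passed without prepubertal 8-16-cell replicate 2 (2.92, adjusted p = 0.0412).

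PSMA6, another alpha subunit, exceeded background on all 12 arrays, as PSMC6 and PSMD11 did, and was read at both stages. Its signals were 7479.5, 13198 and 9437 in prepubertal blastocysts against 9884.5, 10506 and 27493 in prepubertal 8-16-cell embryos. They were 5353, 3594 and 19256 in adult blastocysts against 11729, 13792 and 13263 in adult 8-16-cell embryos. The stages overlapped in both donor groups, and the mean difference was −0.69 (SE 0.67, limma adjusted p = 0.693). The other alpha genes had mean differences of 2.40 for PSMA1, 2.28 for PSMA4, 1.86 for PSMA7 and 0.99 for PSMA3, with adjusted p of 0.113 to 0.542.

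Of 4 structural beta-ring genes, which carry no cutting site, PSMB4 was higher in blastocysts. PSMB4 signals were 9886, 24728 and 1628 in prepubertal blastocysts against 4759.5, 22.8 and 390.3 in prepubertal 8-16-cell embryos. They were 11179, 7536 and 9717 in adult blastocysts against 2239, 533 and 1211 in adult 8-16-cell embryos. The adult groups were apart, while prepubertal 8-16-cell replicate 1 exceeded prepubertal blastocyst replicate 3. The mean difference was 3.58 (SE 0.93, limma adjusted p = 0.00501). It was 4.13 (adjusted p = 0.0655) in prepubertal and 3.03 (adjusted p = 0.297) in adult embryos, positive in both but passing in neither. PSMB2, another structural subunit, did not pass. Its signals were 3694, 5143 and 2062 in prepubertal blastocysts against 6507, 6959.8 and 1058 in prepubertal 8-16-cell embryos. Adult blastocysts had PSMB2 signals of 3138, 1753 and 5286 against 5309.6, 2302 and 2359 in adult 8-16-cell embryos. The groups overlapped, and the mean difference was −0.05 (SE 0.86, adjusted p = 0.990). A second probe set of PSMB2 gave 2.79 (SE 1.0, adjusted p = 0.0760), so its probe sets disagreed. PSMB1 and PSMB3 had mean differences of 2.71 (adjusted p = 0.108) and 1.61 (adjusted p = 0.483).

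The 3 catalytic beta genes had a median stage difference of 4.35, above that of every other role, and 2 of them were called. PSMB6 supplies the caspase-like cutting site. Its signals were 2954, 789 and 809.5 in prepubertal blastocysts against 9.06, 10.5 and 47.9 in prepubertal 8-16-cell embryos. They were 1850.4, 1711.5 and 1237 in adult blastocysts against 3.73, 519 and 189 in adult 8-16-cell embryos. All 6 blastocyst arrays lay above all 6 8-16-cell arrays. The mean difference was 4.40 (SE 1.04, limma adjusted p = 0.00166). In prepubertal embryos alone it was 5.17 (SE 1.47, adjusted p = 0.0304), and in adult embryos it was 3.62 (adjusted p = 0.241) and did not pass. PSMB6 was at or below background on all 3 prepubertal 8-16-cell arrays, so that the bound read from the arrays is at least 1.96-fold higher in prepubertal blastocysts. Such a bound sets the mean log2 signal of the blastocyst arrays against the mean log2 background of the 8-16-cell arrays. It compares means and need not hold against each array. Background on prepubertal 8-16-cell replicate 3 was 1664, above the PSMB6 signals of 789 and 809.5. The call in prepubertal embryos was lost when any prepubertal blastocyst array, or 8-16-cell replicate 1 or 2, was left out, with PSMB6 differences of 4.55 to 5.49 and adjusted p of 0.0724 to 0.199.

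PSMB7, which supplies the trypsin-like site, was also higher in blastocysts. Its signals were 4095, 2293 and 2985 in prepubertal blastocysts against 9.82, 395 and 127 in prepubertal 8-16-cell embryos. They were 1921.5, 3882 and 1669 in adult blastocysts against 4.56, 144 and 1002 in adult 8-16-cell embryos. Again all 6 blastocyst arrays lay above all 6 8-16-cell arrays. The mean difference of PSMB7 was 4.35 (SE 1.05, limma adjusted p = 0.00207). It was 4.73 (adjusted p = 0.0603) in prepubertal and 3.96 (adjusted p = 0.168) in adult embryos, and neither passed. The bound in prepubertal embryos was at least 4.81-fold higher in blastocysts. PSMB5, which supplies the chymotrypsin-like site, was less separated. Its signals were 2957, 6964 and 284 in prepubertal blastocysts against 11.8, 1049 and 1740.4 in prepubertal 8-16-cell embryos. Adult blastocysts had PSMB5 signals of 2721, 1707 and 2382 against 1118, 3642 and 1588 in adult 8-16-cell embryos. The stages overlapped in both donor groups, and the mean difference of 1.28 (SE 1.0, adjusted p = 0.591) did not pass.

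The inducible subunits PSMB8, PSMB9 and PSMB10 replace the constitutive cutting subunits in immune cells and after interferon, and they were seldom above background. PSMB10 signals were 14.8, 7.38 and 796 in prepubertal blastocysts against 14.3, 338 and 638 in prepubertal 8-16-cell embryos. In adult embryos they were 174, 85.7 and 61.7 in blastocysts against 35.1, 107 and 201 in 8-16-cell embryos. Of these, only prepubertal blastocyst replicate 3 exceeded its array's background. PSMB9 signals were 8.81, 9.17 and 45.7 in prepubertal blastocysts against 62.4, 54.4 and 485 in prepubertal 8-16-cell embryos, and 96.1, 18.4 and 61.2 in adult blastocysts against 4.42, 83.9 and 144 in adult 8-16-cell embryos. No array had PSMB9 above background, so no order is read from its values. The mean differences were −0.57 for PSMB10, −1.05 for PSMB9 and −0.07 for PSMB8, with adjusted p of 0.60 to 0.985, and none of the 3 genes passed in any comparison.

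Of the 6 ATPases of the base, 1 was called and 5 had a positive mean difference. PSMC4, an ATPase subunit, was higher in blastocysts. Its signals were 2849.9, 3889.6 and 1395 in prepubertal blastocysts against 549, 14.7 and 225 in prepubertal 8-16-cell embryos. They were 3256.5, 2959 and 17306 in adult blastocysts against 229.8, 1471 and 714 in adult 8-16-cell embryos. The stages were apart within each donor group. The mean difference was 3.53 (SE 1.0, limma adjusted p = 0.0131). The PSMC4 call was lost without adult blastocyst replicate 3 (3.12, adjusted p = 0.0779) and without prepubertal 8-16-cell replicate 2 (2.93, adjusted p = 0.0629).

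PSMC6, another ATPase, was read on all arrays at both stages. Its signals were 7984, 18546 and 5055 in prepubertal blastocysts against 8838, 6304 and 4245 in prepubertal 8-16-cell embryos. They were 8732, 7361 and 8458 in adult blastocysts against 23784, 13742 and 13096 in adult 8-16-cell embryos. The prepubertal stages overlapped, and in adult embryos every blastocyst array lay below every 8-16-cell array. The mean difference was −0.22 (SE 0.69, limma adjusted p = 0.928), whereas a second probe set of PSMC6 gave 3.03 (SE 1.01, adjusted p = 0.0475). The mean differences of the other ATPases were 2.68 for PSMC5, 2.30 for PSMC3, 0.93 for PSMC2 and 0.59 for PSMC1, with adjusted p of 0.113 to 0.864. PSMC3 was at or below background on all adult 8-16-cell arrays, with a bound of at least 2.03-fold higher in adult blastocysts. That bound holds for the means only, since PSMC3 exceeded background on 2 of 3 adult blastocyst arrays. Adult blastocyst replicate 2, at 122, lay below adult 8-16-cell replicate 2, at 183. The adult stages thus overlapped, and the PSMC3 difference there was 2.62 (limma adjusted p = 0.508). Second probe sets gave 1.21 for PSMC5 (adjusted p = 0.643) and 2.21 for PSMC2 (adjusted p = 0.0859).

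The base also holds PSMD1 and PSMD2, large scaffold subunits, and PSMD4, a receptor for ubiquitin chains. PSMD1 signals were 3892.5, 10845 and 3291 in prepubertal blastocysts against 273, 638 and 37.0 in prepubertal 8-16-cell embryos. They were 3227.5, 5929 and 4195 in adult blastocysts against 579, 5416 and 456 in adult 8-16-cell embryos. The prepubertal stages were apart, while adult 8-16-cell replicate 2 lay among the adult blastocysts. The mean difference of PSMD1 was 3.25 (SE 0.97, limma adjusted p = 0.0201). It was 4.59 (SE 1.37, adjusted p = 0.0434) in prepubertal embryos and 1.91 (adjusted p = 0.711) in adult embryos. The mean call was lost without adult blastocyst replicate 2, prepubertal blastocyst replicate 2 or adult 8-16-cell replicate 1 or 3 (PSMD1 differences of 2.93 to 3.14, adjusted p of 0.0516 to 0.0799). The call in prepubertal embryos was lost when any prepubertal blastocyst array, prepubertal 8-16-cell replicate 1 or 3, or adult blastocyst replicate 2 or 3 was left out, with PSMD1 differences of 3.58 to 4.92 and adjusted p of 0.0543 to 0.237. PSMD2 had a mean difference of 1.85 (adjusted p = 0.390), and its bound in prepubertal embryos was at least 1.55-fold higher in blastocysts. The prepubertal stages overlapped for PSMD2, with blastocyst replicate 2 at 489 and 8-16-cell replicate 3 at 678.

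PSMD4 differed between stages in adult embryos. Its signals were 5641.5, 697 and 770.0 in prepubertal blastocysts against 2959, 15677 and 95.4 in prepubertal 8-16-cell embryos. They were 6767, 1666 and 9314 in adult blastocysts against 11.8, 112 and 1194 in adult 8-16-cell embryos. The adult stages were apart, and the prepubertal blastocyst arrays lay within the range of the prepubertal 8-16-cell arrays. The PSMD4 difference was 4.87 (SE 1.45, limma adjusted p = 0.0447) in adult embryos and −0.24 (adjusted p = 0.967) in prepubertal embryos. Its second probe set gave 6.04 (SE 1.48, adjusted p = 0.00813) in adult embryos and 0.41 (adjusted p = 0.940) in prepubertal embryos. Averaged over donor groups the PSMD4 difference was 2.31 (adjusted p = 0.202) and that of the second probe set 3.22 (adjusted p = 0.0392). The adult call was lost when any adult blastocyst array, adult 8-16-cell replicate 1 or 2, or prepubertal blastocyst replicate 1 was left out, with PSMD4 differences of 3.59 to 5.61 and adjusted p of 0.0516 to 0.322.

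Of 4 lid genes measured, PSMD6 was called. PSMD6 is a structural subunit of the lid. Its signals were 4261, 4872 and 1846 in prepubertal blastocysts against 8.14, 1026 and 35.5 in prepubertal 8-16-cell embryos. They were 1092, 6948 and 6264 in adult blastocysts against 131, 3189 and 749 in adult 8-16-cell embryos. The prepubertal stages were apart, and adult 8-16-cell replicate 2 exceeded adult blastocyst replicate 1. The mean difference of PSMD6 was 3.66 (SE 1.02, limma adjusted p = 0.0112). It was 4.96 (SE 1.45, adjusted p = 0.0364) in prepubertal embryos and 2.36 (adjusted p = 0.602) in adult embryos. A second probe set of PSMD6 gave a mean difference of −0.14 (adjusted p = 0.969), and with both averaged the mean call was lost (1.76, adjusted p = 0.410). It was also lost without adult 8-16-cell replicate 1 (PSMD6 difference 3.09, adjusted p = 0.0579). The prepubertal call was lost when any prepubertal blastocyst array, or 8-16-cell replicate 1 or 3, was left out, with PSMD6 differences of 3.87 to 5.39 and adjusted p of 0.0769 to 0.178.

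PSMD11 is a structural lid subunit as well. Its signals were 7591, 4624 and 22863 in prepubertal blastocysts against 3567, 13545 and 4199 in prepubertal 8-16-cell embryos. They were 7844, 5773.5 and 3203 in adult blastocysts against 7154, 7613 and 40324 in adult 8-16-cell embryos. The stages overlapped in both donor groups, and the mean difference was −0.32 (SE 0.72, limma adjusted p = 0.897). PSMD14, the enzyme that cuts the ubiquitin chain off the substrate, had a mean difference of 0.11 (adjusted p = 0.973), and PSMD13 was below background throughout.

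Of the 3 chaperones of the base, 1 was higher and 1 lower in blastocysts. PSMD5 was higher in blastocysts, with signals of 2839.9, 7095 and 2015 in prepubertal blastocysts against 8.17, 285 and 513 in prepubertal 8-16-cell embryos. In adult embryos they were 3249, 231 and 7801 in blastocysts against 478, 336 and 111 in 8-16-cell embryos. The prepubertal stages were apart, and adult blastocyst replicate 2 lay among the adult 8-16-cell arrays. The mean difference of PSMD5 was 3.59 (SE 1.04, limma adjusted p = 0.0159), and the bound in prepubertal embryos was at least 5.45-fold higher in blastocysts. The PSMD5 call was lost without adult blastocyst replicate 3, prepubertal blastocyst replicate 2 or prepubertal 8-16-cell replicate 1 (differences of 2.92 to 3.33, adjusted p of 0.0573 to 0.0965).

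PSMD9 was the member lower in blastocysts. Its signals were 1026, 145 and 465 in prepubertal blastocysts against 10557, 2890.0 and 746 in prepubertal 8-16-cell embryos. They were 23.8, 1581 and 12.3 in adult blastocysts against 2168, 5322 and 4421 in adult 8-16-cell embryos. The adult stages were apart, whereas prepubertal blastocyst replicate 1 exceeded prepubertal 8-16-cell replicate 3. The mean difference of PSMD9 was −3.83 (SE 1.03, limma adjusted p = 0.00755). It was −4.94 (SE 1.46, adjusted p = 0.0433) in adult embryos and −2.73 (adjusted p = 0.403) in prepubertal embryos. The adult call was lost when any adult 8-16-cell array, adult blastocyst replicate 1 or 3, or prepubertal blastocyst replicate 1 was left out, with PSMD9 differences of −5.32 to −3.89 and adjusted p of 0.0549 to 0.314.

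PSMD10, the third base chaperone, missed the threshold. Its signals were 7218, 6006 and 4492 in prepubertal blastocysts against 2428, 223 and 104 in prepubertal 8-16-cell embryos. They were 5401, 3219.7 and 8124 in adult blastocysts against 3911.5, 2008 and 763 in adult 8-16-cell embryos. The prepubertal stages were apart and the adult stages overlapped. The PSMD10 difference was 2.66 (SE 0.92, limma adjusted p = 0.0621), and it passed without prepubertal 8-16-cell replicate 1 (3.30, adjusted p = 0.0157).

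No activator, inhibitor or core assembly chaperone was called by limma, and PSME4, PSMG1 and PSMG2 had an unadjusted p under 0.05 for the mean stage difference. PSME4, an activator that binds the core in place of the cap, had signals of 3291, 2782 and 2579 in prepubertal blastocysts against 44.9, 2455 and 484 in prepubertal 8-16-cell embryos. In adult embryos they were 5279, 7857 and 4626 in blastocysts against 3106, 1012.5 and 3127 in 8-16-cell embryos. The stages were apart within each donor group, and the mean difference was 2.10 (SE 0.94, limma adjusted p = 0.210). PSME1 and PSME2, which form an interferon-inducible activator ring together, had mean differences of 1.55 and 1.60 (adjusted p = 0.517 and 0.462). PSMF1, an inhibitor of the core, had signals of 133, 17.4 and 194 in prepubertal blastocysts against 244, 18.6 and 236 in prepubertal 8-16-cell embryos. Adult blastocysts had PSMF1 signals of 14.2, 135 and 588 against 126, 48.0 and 109 in adult 8-16-cell embryos. Its groups overlapped, and its mean difference was 0.02 (SE 0.96, adjusted p = 0.996). PSMF1 exceeded background on 1 adult blastocyst array, 1 adult 8-16-cell array and no prepubertal array. Its difference thus rests mostly on signals at or below background.

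PSMG1 and PSMG2 act as a pair that helps the alpha ring to form. PSMG1 signals were 3587, 461 and 5385 in prepubertal blastocysts against 962, 1201 and 80.5 in prepubertal 8-16-cell embryos. They were 3039, 2306 and 2421 in adult blastocysts against 1816, 1044 and 9.03 in adult 8-16-cell embryos. The adult stages were apart and the prepubertal stages overlapped, and the mean difference was 2.47 (SE 1.03, limma adjusted p = 0.162). PSMG2 signals were 571, 977 and 5497 in prepubertal blastocysts against 36.6, 246 and 39.6 in prepubertal 8-16-cell embryos. They were 163, 1382.5 and 297 in adult blastocysts against 295, 752 and 12.6 in adult 8-16-cell embryos. Here the prepubertal stages were apart and the adult stages overlapped, and the mean difference was 2.59 (SE 1.05, adjusted p = 0.144), with a bound of at least 2.30-fold higher in prepubertal blastocysts. PSMG3, another chaperone of core assembly, had a mean difference of 1.34 (adjusted p = 0.531), with a bound of at least 1.57-fold higher in adult blastocysts. Of the 3 adult blastocyst arrays, 2 exceeded background for PSMG3. PSME3IP1, which is no subunit, had signals of 749, 1553 and 374 in prepubertal blastocysts against 146, 276 and 733 in prepubertal 8-16-cell embryos. Adult blastocysts had PSME3IP1 signals of 2176, 268 and 40.3 against 232, 344 and 67.6 in adult 8-16-cell embryos. Its stages overlapped in both donor groups, and the mean difference was 0.99 (SE 1.05, adjusted p = 0.728), with a bound of at least 1.20-fold higher in prepubertal blastocysts.

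Core and cap genes were then set side by side. In the mean stage comparison 3 of 16 core genes were higher and none lower, with a median difference of 1.73. Of the 16 cap genes, 4 were higher and 1 was lower, with a median of 2.08. Without the 3 inducible subunits the core median was 2.28, and without the 3 base chaperones the cap median was 1.85. In prepubertal embryos the median stage difference was 2.62 for core and 1.54 for cap genes. In adult embryos it was 0.50 for core and 1.47 for cap genes. The order of these medians thus differed between donor groups, and it was not tested. In prepubertal embryos it turned to 1.83 for core and 2.54 for cap genes without 8-16-cell replicate 3.

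The core minus cap value of an array, which is the median log2(signal + 16) of core genes minus that of cap genes, has no meaning as a level, because different probe sets are set against each other. Only its change between groups is read, and no test was made, since the genes were chosen with earlier results of these data known. It was −0.21, −0.16 and −0.10 in prepubertal blastocysts against −0.73, 0.05 and −0.64 in prepubertal 8-16-cell embryos. It was −0.28, −0.49 and −0.72 in adult blastocysts against 1.38, 0.11 and −0.01 in adult 8-16-cell embryos. The means were −0.16 ± 0.05 in prepubertal blastocysts and −0.44 ± 0.42 in prepubertal 8-16-cell embryos, and −0.49 ± 0.22 in adult blastocysts and 0.49 ± 0.77 in adult 8-16-cell embryos (SD, n = 3 each). The stages overlapped in prepubertal embryos, where the change between stages was 0.28, beside an SD of 0.45 within groups. It was 0.14 to 0.53 when an array was left out, so it did not turn as the medians above did. The stages did not overlap in adult embryos, where the change between stages was −0.99, and −1.24 to −0.55 when an array was left out. Adult 8-16-cell replicate 1 lay far above the others and held most of the spread. The core median itself was 11.79, 11.89 and 10.82 in prepubertal blastocysts against 7.73, 9.48 and 8.38 in prepubertal 8-16-cell embryos, and 11.40, 11.10 and 11.60 in adult blastocysts against 10.35, 10.88 and 9.53 in adult 8-16-cell embryos. The cap median was 12.00, 12.06 and 10.92 in prepubertal blastocysts against 8.46, 9.43 and 9.02 in prepubertal 8-16-cell embryos, and 11.67, 11.58 and 12.33 in adult blastocysts against 8.98, 10.76 and 9.55 in adult 8-16-cell embryos. Blastocyst arrays were above 8-16-cell arrays in both donor groups for both parts.

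The donor groups were compared at each stage, which asks whether embryos from prepubertal heifers differ from those of adult cows. At the 8-16-cell stage 0 of 40 genes were called by limma, beside 0.0208% of all probe sets. At an unadjusted p under 0.05 there were 6 of 40, against 9.02% of all probe sets. Of these, PSMB8 (3.85) and PSMD4 (3.41) were on the higher side in prepubertal embryos, and PSMA5 (−3.60), PSMA7 (−2.88), PSMB3 (−3.35) and PSMD14 (−2.42) on the lower side, with adjusted p of 0.369 to 0.528. The difference was below 0 for 25 of the 40 genes, with a median of −1.0 log2 units against 0.59 for all probe sets. With quantile normalization the median was −0.98 for the 40 genes and 0.05 for all probe sets. The part of the higher background of the prepubertal arrays in this was not tested. Arrays of the donor groups did not overlap for 5 of 40 genes (PSMA5, PSMB3, PSMB8, PSMC6 and PSMD13), against 12.7% of all probe sets. Without prepubertal replicate 3 again 0 genes were called, and the median was −0.67 against 0.29 for all probe sets.

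PSMB8 is the inducible counterpart of PSMB5, and its values are given because its unadjusted p was the smallest, which was seen first. Its signals were 266, 174 and 499 in prepubertal 8-16-cell embryos against 4.12, 3.5 and 7.52 in adult 8-16-cell embryos. In blastocysts they were 5.61, 14.4 and 185 in prepubertal embryos against 10.2, 160 and 291 in adult embryos. The 8-16-cell groups did not overlap, but all 6 of those arrays were at or below their own background for PSMB8, and background was higher on the prepubertal arrays. The limma adjusted p was 0.369.

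In blastocysts 0 of 40 genes were called, beside 0% of all probe sets. PSMC1 alone had an unadjusted p under 0.05, with a difference of 2.98. The median difference of the 40 genes was −0.13, against 0.16 for all probe sets. Arrays did not overlap for 2 of 40 genes, PSME4 (−1.0) and PSMG3 (−1.83), with the prepubertal arrays below the adult ones, against 9.82% of all probe sets. The median SD of the 40 genes within a group was 1.12 in prepubertal blastocysts, 0.801 in adult blastocysts, 1.97 in prepubertal 8-16-cell embryos and 1.3 in adult 8-16-cell embryos, so arrays varied most among prepubertal 8-16-cell embryos.

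The stage difference itself was compared between donor groups as prepubertal minus adult. No gene passed (0 of 40, beside 0% of all probe sets), and 3 had an unadjusted p under 0.05. These were PSMB8 (−4.99, limma adjusted p = 0.873), PSMD4 (−5.10, adjusted p = 0.873) and PSMA5 (4.07, adjusted p = 0.897). A call in 1 donor group and not in the other, as for PSMA5, PSMD4 and PSMD9, therefore does not show a difference between donor groups.

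**Figure D4:**
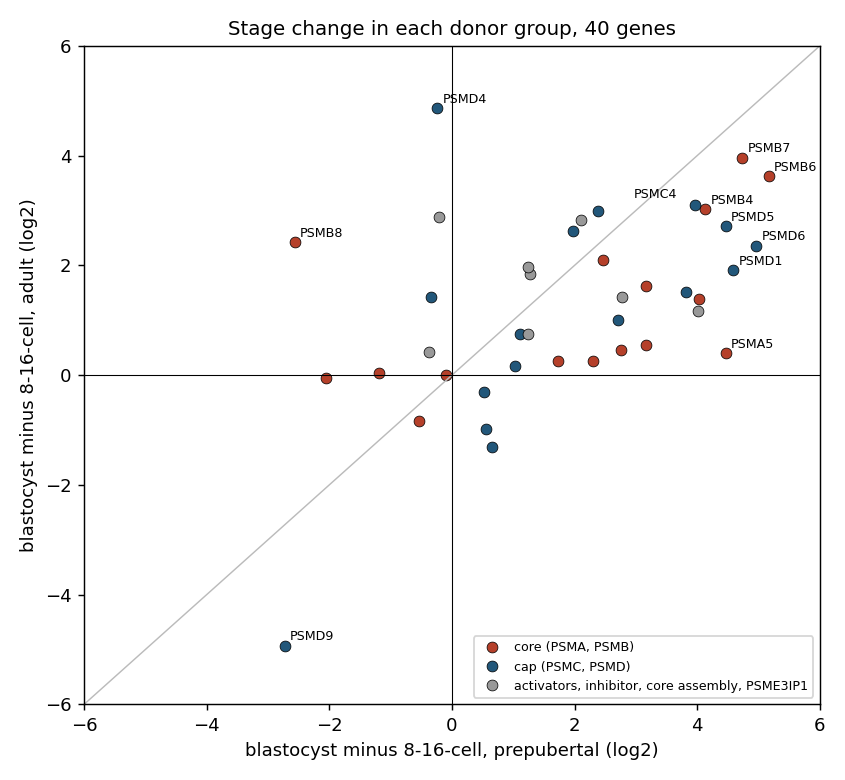
Stage difference of the 40 genes in prepubertal embryos (horizontal) and adult embryos (vertical), both as blastocyst minus 8-16-cell log2(signal + 16), coloured by core, cap and other genes. Grey marks the diagonal of equal differences; PSMD4 and PSMA5 lie far from it, at −0.24 against 4.87 and at 4.47 against 0.39, and neither difference between donor groups passed the test.

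Genes around the proteasome were read from lists of bound factors, transcription factors, ubiquitin enzymes, shuttles and antigen presentation partners. Of 43 listed genes 30 were measured, and averaged over donor groups 4 were higher in blastocysts and 1 was lower, beside 6.40% of all probe sets and 9.87% of named genes called. POMP, which completes the assembly of the core and is its first substrate, was higher by 3.83 log2 units (SE 0.87, limma adjusted p = 0.000972). NFE2L2, a transcription factor of the antioxidant response, was higher by 3.44 (adjusted p = 0.0233), UBQLN2, which shuttles tagged proteins to the proteasome, by 3.19 (adjusted p = 0.0476), and B2M, the light chain of class I antigen-presenting molecules, by 3.05 (adjusted p = 0.020). AKIRIN2, known in human cells to carry proteasomes into the nucleus, fell by 2.75 (adjusted p = 0.00772). The POMP call held without each array in turn and was lost with signals floored at the median background (3.66, adjusted p = 0.145). The AKIRIN2 call was lost without prepubertal blastocyst replicate 2 (−2.29, adjusted p = 0.0505). That of NFE2L2 was lost without adult blastocyst replicate 2, prepubertal blastocyst replicate 1 or 2, or adult 8-16-cell replicate 3 (2.89 to 3.42, adjusted p of 0.0533 to 0.114). That of B2M was lost without adult blastocyst replicate 3, prepubertal blastocyst replicate 1 or 3, adult 8-16-cell replicate 3 or prepubertal 8-16-cell replicate 2 (2.39 to 3.06, adjusted p of 0.0521 to 0.102). The UBQLN2 call held without prepubertal blastocyst replicate 2, adult 8-16-cell replicate 1 or 2, or prepubertal 8-16-cell replicate 2, and was lost without each of the other 8 arrays (2.02 to 3.40, adjusted p of 0.0522 to 0.362). Under 5 of 9 other settings the UBQLN2 call was lost too, with differences of 1.58 to 3.19 and adjusted p of 0.0662 to 0.565. With the floor the calls of AKIRIN2 (adjusted p = 0.0931) and B2M (2.49, adjusted p = 0.109) were lost as well, and that of NFE2L2 under none of these settings.

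Within donor groups, 2 of the 30 listed genes passed in adult embryos, beside 2.13% of all probe sets. B2M was higher in adult blastocysts (4.88, limma adjusted p = 0.0165) and ZFAND2A, an arsenite-inducible factor that binds the particle, lower (−4.82, adjusted p = 0.0415). ZFAND2A was at or below background on all adult blastocyst arrays, with a bound of at least 5.24-fold lower. Its call was lost when any array of the adult groups was left out (adjusted p of 0.0682 to 0.184), and that of B2M without adult blastocyst replicate 1 or 3 or adult 8-16-cell replicate 1 or 3 (adjusted p of 0.0533 to 0.204). In prepubertal embryos 1 of the 30 listed genes passed, beside 2.34% of all probe sets. It was AKIRIN2 (−4.12, adjusted p = 0.0109), which was lost without blastocyst replicate 2 (−3.19, adjusted p = 0.170) or 8-16-cell replicate 2 (−3.73, adjusted p = 0.0709). With the floor at the median background, B2M (3.77, adjusted p = 0.146) and ZFAND2A (−2.19, adjusted p = 0.0952) were no longer called in adult embryos, nor AKIRIN2 in prepubertal embryos (adjusted p = 0.115). The ZFAND2A call was also lost with an offset of 1 (adjusted p = 0.0625) or quantile normalization (adjusted p = 0.051), and that of AKIRIN2 with eBayes without trend (adjusted p = 0.065). ADRM1, a ubiquitin receptor of the cap, had a mean stage difference of 0.24 (adjusted p = 0.948). NFE2L1, the transcription factor that raises proteasome genes when the proteasome is inhibited, had −0.63 (adjusted p = 0.837).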

How the data were processed

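RNA of 12 embryo pools was measured on Affymetrix bovine arrays. Each probe set has 1 deposited signal intensity per array, made by the authors with MAS5 per the submitters' processing notes. The sources used here do not give its version. After trimming 2% at each end every array averaged about 500, so arrays were scaled to a common target. Genes were named from the platform's annotation: 13292 probe sets named 1 gene, 86 several and 10638 none, and all 40 members matched RefSeq by gene identifier. No column belonged to another series, and at most 0.00416% of the values were equal between any pair of arrays.

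From the signals, log2(signal + 16) was analysed with limma 3.58.1 in R 4.3.3: a mean for each of 4 groups, all 12 arrays, eBayes with trend, two-sided, Benjamini-Hochberg over 24016 probe sets (112 controls left out), for 6 comparisons. The number of arrays limits the precision, and a stage difference within a donor group had a median SE of 1.3. The shared spread entered each SE with 196 degrees of freedom, beside 8 from the gene's own arrays. A printed SE thus mostly reflects probe sets of like level and is not the spread of that gene's arrays. On this scale a difference understates the change of dim probe sets. A bound was given where a group was at or below background on all its arrays. It compares means of log2 levels, so single arrays can fall short of it. The brighter group did not have to exceed background on every array. Whether the control probe sets used as background were spiked is not known.

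Values on every array are printed for genes called in any comparison and, for each role, for the gene of highest mean and the gene of smallest mean-stage p. Listed pathway genes are named when called, with POMP, ADRM1, SEM1, NFE2L1 and PSMC3IP always. Members, lists and comparisons were chosen with earlier results of these data known. The role of PSME3IP1 was added after the values were seen. Alternatives were the offset, quantile normalization, a filter and a floor at background, array weights, eBayes without trend, fewer arrays, a replicate block, averaged probe sets and leaving out each array.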

Additional observations from a re-analysis of the deposited data

How the results depend on the processing

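Among members, the count called in the mean stage comparison (8) was 6 to 9 when an array was left out. It was 4 with signals floored at the median background, which made all signals below it equal. PSMB4, PSMD5, PSMD6 and PSMD9 were lost with the floor. In prepubertal embryos the count of members (4) was 0 to 5 when an array was left out, 1 with an offset of 64, 9 with quantile normalization, and 2 with the floor, with array weights or with only the arrays compared. In adult embryos the count of members (2) was 0 to 2 when an array was left out, 0 with an offset of 64, quantile normalization or the floor, and 1 with the filter on dim probe sets or eBayes without trend. The calls of PSMB6 and PSMB7 in the mean stage comparison held under all 21 alternatives, with adjusted p of 0.000487 to 0.0197 and 0.000541 to 0.0202. No member was called between donor groups, or in the difference of stage changes, under any alternative. When probe sets of a gene were averaged, the change in core minus cap was 0.96 (0.28 as reported) in the prepubertal stage comparison. In the mean stage comparison it was then 0.15 (−0.35 in the main setting). Between donor groups at the 8-16-cell stage it was −1.51 without inducible subunits (−0.94 in the main setting). Uncalled differences near 0 changed sign: PSMB2 was 1.37 and PSMC6 1.40 with averaged probe sets, PSMF1 was −0.072 with an offset of 1, and without single arrays PSMB2 ran between −0.49 and 0.19, PSMD11 between −0.65 and 0.086 and PSMF1 between −0.50 and 0.58. Deviations of same-numbered arrays from their group means correlated at −0.0253 to 0.0486, and those of arrays with other numbers at −0.0721 to 0.044. Such correlations cannot tell whether the replicate numbers pair the arrays. With the replicate number as a block, the counts of called members were 8, 4 and 2 as reported, and the PSMB6 difference was 4.40 (adjusted p = 0.00167). Over all probe sets, the floor gave 822 calls in the mean stage comparison (1538 as reported), 369 in prepubertal embryos (563 as reported) and 299 in adult embryos (512 as reported), where array weights gave 889. Leaving out an array gave 272 to 611 in prepubertal embryos and 253 to 794 in adult embryos. The 5 called between donor groups at the 8-16-cell stage became 2 to 14 when an array was left out, and 0 with the filter on dim probe sets, the floor or eBayes without trend. The causes of these shifts were not tested.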
